A study of Mus musculus with 24 samples.

Results

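Cytosolic and mitochondrial chaperones, the proteins that help other proteins fold or refold, were followed in RNA-seq data from Neuro2A cells, a mouse neuroblastoma line. The genes were taken from a list of 36 symbols, covering targets of the heat shock factors, constitutive chaperones and the factors HSF1 and HSF2 themselves. All 36 were among the 39253 genes of the deposited table, and 33 passed the filter of at least 0.5 CPM (counts scaled to a common library size) in at least 3 samples that 13901 genes passed in all. The 24 samples form 8 groups of 3, described as independent biological replicates of wild-type Neuro2A cells. For each of RfxCas13d, HiFi-RfxCas13d (a high-fidelity variant) and DiCas7-11, RNA-targeting CRISPR effectors, 1 group received a plasmid with the effector under a CAG promoter and a crRNA against mouse ataxin-2 (mATXN2), and another the effector with a non-targeted (NTG) crRNA, and cells were harvested 48 hr later. The remaining groups are untransfected cells and a positive control in which an antisense oligonucleotide (ASO) lowers ataxin-2, whose sequence, dose and time are not stated in the labels. The column headers of the table name the control and targeting arms EV and G12 where the sample labels name them NTG and G10, and the arms are called NTG and mATXN2 here, as the study describes them. Transfection was transient, by Lipofectamine, in 1 cell line, and no sorting of transfected cells is described. The treatment text of the labels describes transfection for every sample, so it does not settle whether the untransfected and ASO cells were given the reagent, and in a comparison with untransfected cells the plasmid, the effector and any reagent cannot be told apart.

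Chaperones of the Hsp70 family bind exposed stretches of unfolded proteins, are loaded by J-domain proteins of the Hsp40 family and are reset by nucleotide exchange factors such as the Hsp110 proteins and BAG3. Hsp90 acts later, with co-chaperones, on kinases, receptors and other clients, while the ring-shaped TRiC complex folds actin and tubulin and the mitochondrial Hsp60/Hsp10 chamber folds imported proteins. Under heat or other stress that unfolds proteins, HSF1 binds heat shock elements, inverted repeats of the unit nGAAn, and raises the inducible genes, of which the Hsp70 genes Hspa1a and Hspa1b are the textbook readout. Most other members are abundant in unstressed cells, and some inducible genes, such as Hsp90aa1, are also transcribed at high levels without stress.

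Promoter sequences are shown for the members that hold a strict heat shock element, because such an element is the sequence feature the inducible class is named for. RefSeq windows of 300 bases (250 before the gene start and 50 after it, GRCm38.p6) were at hand for 28 members and were searched for 3 alternating units, written GAANNTTCNNGAA or TTCNNGAANNTTC, which are reverse complements of each other, so that both strands were covered. Of 27025 genes with a window, 179 (0.662%) held a match, and 5 of the 28 members did: Hspd1, Hspe1, Dnajb6, Hsph1 and Chordc1. The matches do not follow the classes used here, since Hsph1 and Chordc1 are classed as heat shock factor targets and the others as constitutive chaperones. Hspd1 and Hspe1, which encode Hsp60 and Hsp10, are divergent neighbours on chromosome 1 and share 1 element, here read on the strand of Hspe1. The capitals mark the matching bases, and overlapping matches run together.
Hspe1 and Hspd1, chr1:55088053-55088082, plus strand: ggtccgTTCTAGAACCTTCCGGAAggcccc
Dnajb6, chr5:29735843-29735872, plus strand: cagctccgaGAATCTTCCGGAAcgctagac
Hsph1, chr5:149636287-149636316, minus strand: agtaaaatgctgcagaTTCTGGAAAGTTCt
Chordc1, chr9:18292259-18292288, plus strand: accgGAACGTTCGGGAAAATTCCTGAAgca
The element of Hspe1 lies 89 to 72 bases before its start and that of Dnajb6 46 to 34 bases before its start. The run of Chordc1, 23 bases long, crosses the gene start, and the element of Hsph1 lies 37 to 49 bases into the transcript. The windows of Hspa1a and Hspa1b held no match to these letters, which says nothing of shorter or less regular elements. Windows of Hsp90aa1, Cryab, Hspa9, Hspa8, Hsp90ab1, St13, Cct4 and Hsf1 were not analysed here.

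The total count per sample was 12665725 to 22504999 (median 16478419), and the ASO samples were the deepest (21874644 to 22504999). The members held 2.435% to 2.77% of the counts of a sample. Atxn2, the targeted transcript, was at 121 to 125 CPM in untransfected cells and 48.9 to 54.1 CPM with the ASO, and its fall with the mATXN2 crRNA passed the test for HiFi-RfxCas13d (log2 fold change -0.23) and DiCas7-11 (-0.20) but not for RfxCas13d (-0.10, adjusted p = 0.178, edgeR). Of 14 neuroblast markers, 11 passed the filter, with summed levels of 2270 to 2490 CPM, while the 4 astrocyte markers did not and summed to at most 0.62 CPM. These are bulk samples, in which fewer cells of a kind and less RNA per cell cannot be told apart.

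Most chaperone transcripts were abundant and varied little between groups, whereas the textbook inducible genes were at the limit of detection. On the scale of CPM per kb of transcript, which allows levels of different genes to be compared, the means over all samples ran from 0.797 for Serpinh1 to 2265 for Hsp90ab1. Hspa8, the constitutive Hsp70 of the cytosol, followed Hsp90ab1 at 1031, and then came Hsp90aa1 at 686, Cct2 at 643 and Hspd1 at 638. The 8 TRiC subunits, which enter the complex in equal numbers, lay between 192 (Cct3) and 643 (Cct2), a 3.34-fold range. The factors themselves were low, with Hsf1 at 19.3 and Hsf2 at 17.3 CPM per kb. The ratio of the highest to the lowest group mean was under 1.2 for 27 of the 33 members, with a median of 1.12, from 1.03 for Cct5 to 1.93 for Serpinh1. The exceptions were Dnajb4, Cryab and Serpinh1, whose means over all samples (11.1, 4.89 and 1.81 CPM) were the lowest of the 33, and Hsp90aa1, Hsp90ab1 and Chordc1. The ASO group was the lowest of the 8 for 22 of the 33 members and the untransfected group for 6.

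**Figure D1:**
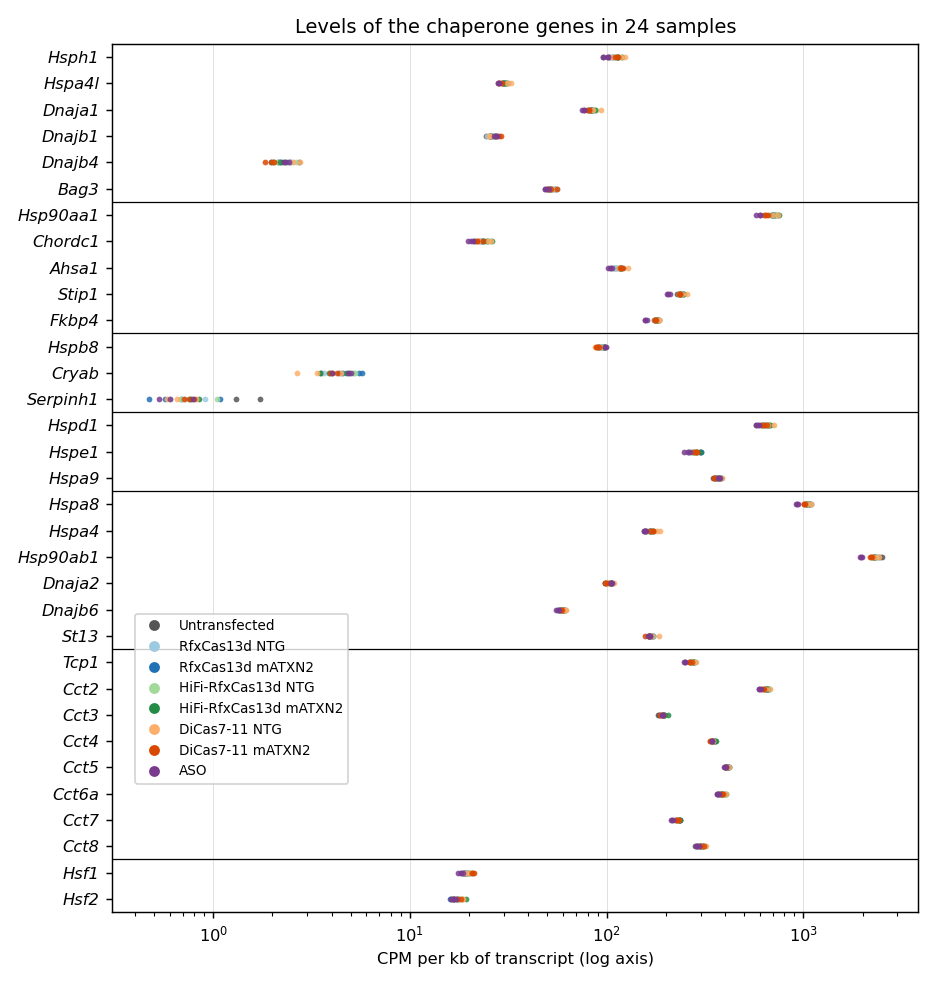
Level of each of the 33 members in the 24 samples, in CPM per kb of transcript on a log axis, with 1 point per sample coloured by group and genes ordered by role. The points of a gene lie close together beside the distance between genes, from Serpinh1 (mean 0.797) to Hsp90ab1 (mean 2265).

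The 3 members that did not pass the filter include both copies of inducible Hsp70. Hspa1a had between 0 and 3.2 estimated counts per sample, with 17 of the 24 samples at 0, and Hspa1b had between 0 and 3.57, with 9 at 0. The copies are near-identical, so that their reads are divided between them only by estimation, and their sum is the safer measure. It came to at most 4.68 counts in a sample, or 0.231 CPM, and to 44.8 counts over all 24 samples. By group the sum was 7.13 counts in untransfected cells, 3.99 with RfxCas13d and NTG, 5.28 with HiFi-RfxCas13d and NTG, 7.83 with DiCas7-11 and NTG, and 8.77 with the ASO. The mATXN2 groups gave 5.58, 2.98 and 3.27 counts for RfxCas13d, HiFi-RfxCas13d and DiCas7-11. At this depth no group stood out, and a difference between groups was not detectable. Hspb1, the small heat shock protein Hsp27, was listed at 0 in 22 of the 24 samples.

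More members were called higher than lower after transfection with an effector and the NTG crRNA, by small amounts. A gene is called here where edgeR's quasi-likelihood test over all 8 groups gave a Benjamini-Hochberg adjusted p under 0.05. Against untransfected cells, 6 of the 33 members were called for RfxCas13d (5 higher, 1 lower), beside 11.3% of all tested genes (5.6% higher and 5.66% lower). For HiFi-RfxCas13d 13 were called (12 higher, 1 lower), beside 20.9% (10.3% higher and 10.6% lower). For DiCas7-11 11 were called (9 higher, 2 lower), beside 21.9% (11.1% higher and 10.8% lower). Called genes are commoner among abundant transcripts: of the 4759 genes with a mean of at least 50 CPM, which include 30 of the members, 19%, 33.4% and 36.3% were called in these 3 comparisons, against 6, 13 and 10 of the 30 members. Those genes lean to higher calls as well, with 10.9% higher and 8.11% lower for RfxCas13d, 20.2% and 13.3% for HiFi-RfxCas13d, and 22.5% and 13.8% for DiCas7-11. Read against genes of that level, the members were called about as often. The median log2 fold change of the 33 members was 0.0153, 0.0741 and 0.0286 and that of all genes was -0.00459, -0.00535 and -0.00616. The 3 comparisons share the same untransfected samples, in which replicate 1 had the lowest of the 3 values for 26 of the 33 members, so their directions are not independent. Replicate 1 was also the lowest of its group for 17 to 23 members in 6 of the other groups, all but RfxCas13d NTG (8). The count for RfxCas13d was 3 without its NTG replicate 2, and that for DiCas7-11 was 7 without its NTG replicate 2 and 6 without untransfected replicate 2.

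**Figure D2:**
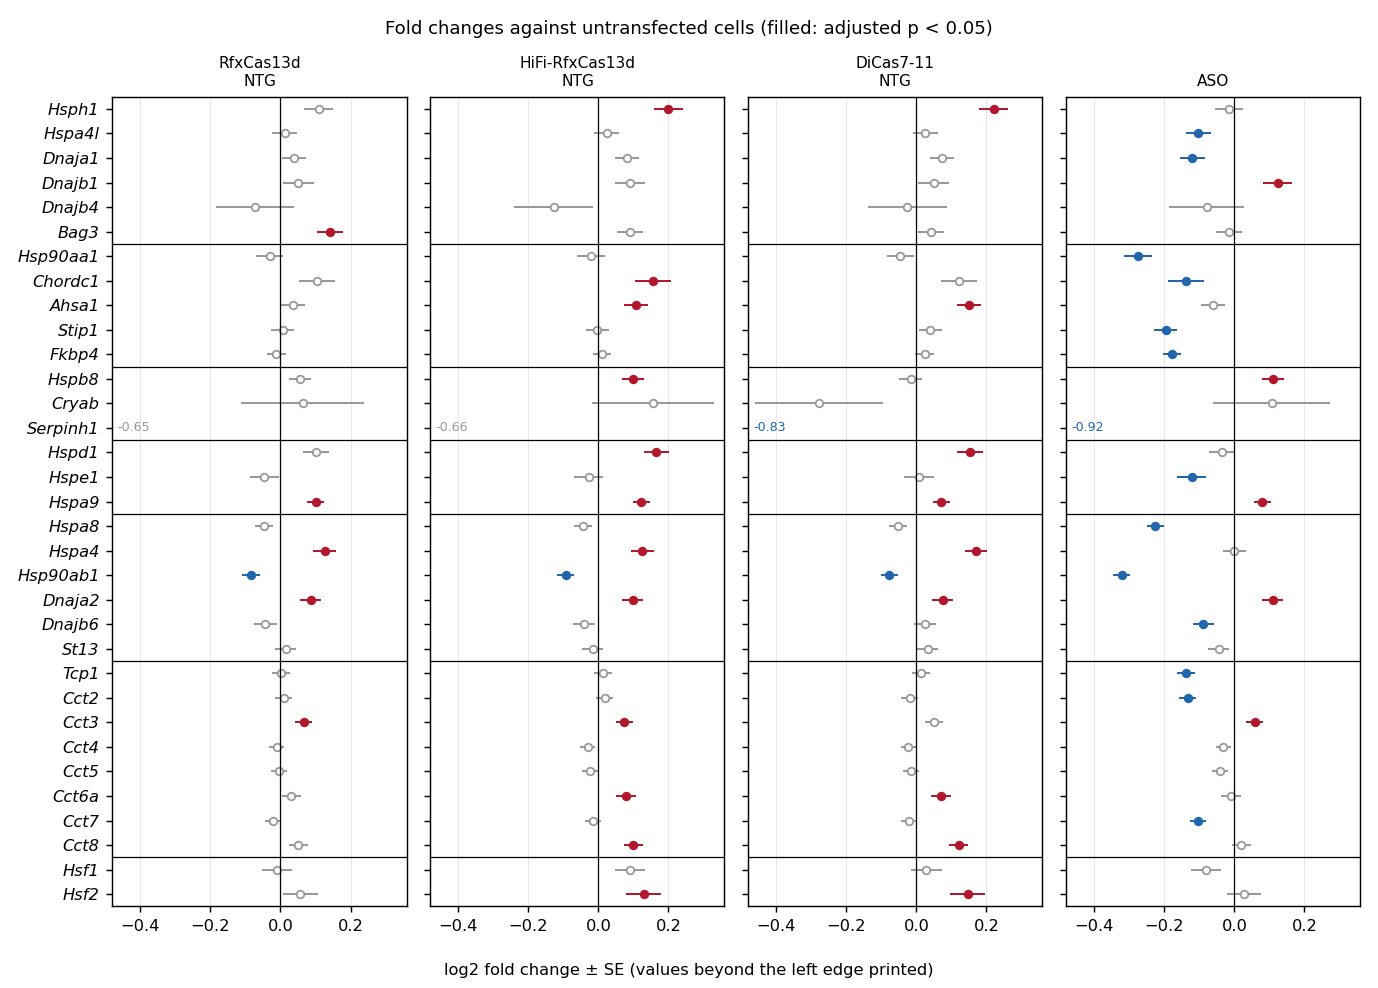
Log2 fold change of each member against untransfected cells, with its SE as a bar, for the NTG group of each effector and the ASO group. Filled points have an adjusted p under 0.05 (red higher, blue lower), open grey points do not, and the values of Serpinh1 are printed because they lie beyond the axis. Hspa4, Hspa9 and Dnaja2 are red and Hsp90ab1 is blue in all 3 NTG panels, and 14 members are blue in the ASO panel.

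By class, the count was 1 of the 14 heat shock factor targets tested and 5 of the 17 constitutive chaperones for RfxCas13d, 4 of 14 and 8 of 17 for HiFi-RfxCas13d, and 3 of 14 and 7 of 17 for DiCas7-11. Hspa4, Hspa9 and Dnaja2 were higher and Hsp90ab1 lower in all 3 NTG comparisons, and all 4 are constitutive chaperones. Of these 12 calls, the 2 of Dnaja2 and Hsp90ab1 for RfxCas13d and the 3 of Hspa9, Dnaja2 and Hsp90ab1 for DiCas7-11 were lost without single samples, which are named with each gene. The ASO gave the opposite balance: 19 members were called against untransfected cells, 5 higher and 14 lower, beside 42.7% of all genes (21% higher and 21.7% lower), and beside 57.8% of the genes with at least 50 CPM, of which 26.7% were higher and 31.1% lower. These 19 were 9 of the 14 heat shock factor targets (2 higher, 7 lower), 10 of the 17 constitutive chaperones (3 higher, 7 lower) and neither heat shock factor. The median log2 fold change with the ASO was -0.062 over the members and -0.00212 over all genes.

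Within the Hsp70 machinery of the inducible class, Hsph1 was called higher with HiFi-RfxCas13d and DiCas7-11. Hsph1, an Hsp110 protein that exchanges nucleotides on Hsp70, was at 456, 487 and 489.9 CPM in the 3 untransfected samples. With the NTG crRNA it was at 511, 520.3 and 514 CPM for RfxCas13d, 529, 547 and 568 CPM for HiFi-RfxCas13d and 508, 592 and 566 CPM for DiCas7-11. With the mATXN2 crRNA it was at 509, 536 and 533 CPM, 545, 569 and 546 CPM and 528, 542 and 538 CPM in the same order, and with the ASO at 455, 481 and 479.8 CPM. All 18 samples with an effector lay above the 3 untransfected and the 3 ASO samples, which overlapped each other. The rise passed the test for HiFi-RfxCas13d NTG (log2 fold change 0.20 ± 0.038 (SE), adjusted p = 0.000338) and DiCas7-11 NTG (0.22 ± 0.038, adjusted p = 0.000102) and not for RfxCas13d NTG (0.11 ± 0.038, adjusted p = 0.0609). For RfxCas13d NTG it was called with DESeq2 (adjusted p = 0.0337), with limma-trend (0.044), with no filter on low counts (0.00114), with the replicate number as a block (0.00698) and with only the groups compared in the fit (0.00826). Of the 5 members that hold the strict element shown above, Hsph1, Chordc1 and Hspd1 were called higher for HiFi-RfxCas13d NTG. Hspe1 and Dnajb6 were not, and none of the 5 was called for RfxCas13d NTG. For DiCas7-11 NTG only Hsph1 and Hspd1 were called, both higher, and with the ASO Chordc1, Hspe1 and Dnajb6 were called lower. Of all genes, 11.3% (RfxCas13d), 20.9% (HiFi-RfxCas13d) and 21.9% (DiCas7-11) were called in the NTG comparisons and 42.7% with the ASO.

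Bag3, a co-chaperone that couples Hsp70 to autophagy, was called for RfxCas13d NTG only. It was at 127, 128 and 128 CPM in untransfected cells and at 144, 139 and 140.1 CPM with RfxCas13d and NTG (log2 fold change 0.14 ± 0.035 (SE), adjusted p = 0.00746). The other NTG groups were at 141, 134 and 134 CPM (HiFi-RfxCas13d) and 135, 132 and 128 CPM (DiCas7-11), with adjusted p = 0.0621 and 0.436. For HiFi-RfxCas13d NTG Bag3 was called with the replicate number as a block (adjusted p = 0.0357) and with the length correction (0.0417). The NTG samples of HiFi-RfxCas13d also lay above all untransfected samples, so the effectors cannot be said to differ from these calls. With all samples no comparison between effectors called Bag3. The mATXN2 groups were at 135, 140.2 and 134, at 132, 132 and 133 and at 144, 129 and 134 CPM, and the ASO group at 130.3, 124 and 125 CPM.

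The J-domain proteins that feed Hsp70 moved little, and those of the inducible class split in direction under the ASO. Dnajb1, the main inducible Hsp40, was at 76.6, 73.1 and 75.3 CPM in untransfected cells and at 81.7, 80.0 and 83.3 CPM with the ASO, with no overlap (log2 fold change 0.12 ± 0.039 (SE), adjusted p = 0.0114). Without untransfected replicate 2 the adjusted p for Dnajb1 was 0.0703. In the NTG groups Dnajb1 was at 79.7, 73.9 and 79.3 CPM for RfxCas13d (0.051 ± 0.041, adjusted p = 0.48), 80.2, 82.6 and 76.5 CPM for HiFi-RfxCas13d (0.091 ± 0.040, adjusted p = 0.113) and 76.5, 75.4 and 80.8 CPM for DiCas7-11 (0.049 ± 0.041, adjusted p = 0.434). Its mATXN2 groups were at 80.8, 77.2 and 76.5, at 80.9, 76.8 and 77.9 and at 82.2, 87.3 and 85.3 CPM, the last holding the 2 highest of all 24 samples. Dnaja1, another J-domain protein of Hsp70, was lower with the ASO (421 to 429.5 CPM) than in untransfected cells (452 to 475 CPM) or in any other sample, at a log2 fold change -0.12 ± 0.032 (SE), adjusted p = 0.00281. Hspa4l, an Hsp110 relative, was also lower with the ASO, at 267, 266 and 269 CPM beside 282, 297 and 282 CPM (-0.10 ± 0.032, adjusted p = 0.0108), and lay at 266 to 309 CPM in the 18 samples with an effector. The call of Hspa4l was lost without untransfected replicate 2 (adjusted p = 0.0992), and with a correction for transcript length, added after the data were seen, the log2 fold change was -0.18. Dnajb4, a J-domain protein of low level, was at 9.04 to 13.5 CPM over all samples and was not called in any comparison.

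Hsp90aa1, the inducible form of cytosolic Hsp90, and 3 of its 4 co-chaperones were lower with the ASO. Hsp90aa1 was at 2249, 2392 and 2436 CPM in untransfected cells and at 1890, 1980 and 1973 CPM with the ASO (log2 fold change -0.28 ± 0.037 (SE), adjusted p = 5.2e-07). The 3 ASO samples were below all 21 other samples, of which the lowest was at 2058 CPM. In the NTG groups it was at 2313, 2280 and 2331 CPM for RfxCas13d (-0.031 ± 0.037, adjusted p = 0.66), 2253, 2337 and 2382 CPM for HiFi-RfxCas13d (-0.021 ± 0.037, adjusted p = 0.744) and 2102, 2450 and 2301 CPM for DiCas7-11 (-0.046 ± 0.037, adjusted p = 0.417), all overlapping the untransfected samples. The mATXN2 groups were at 2270, 2366 and 2315, at 2310, 2464 and 2307 and at 2058, 2174 and 2113 CPM.

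Of the co-chaperones, Stip1, which passes clients from Hsp70 to Hsp90, fell with the ASO from 478, 501 and 515 to 432, 443 and 428 CPM (log2 fold change -0.20 ± 0.029 (SE), adjusted p = 2.86e-06). Fkbp4, a prolyl isomerase of steroid receptor complexes, fell from 466, 482 and 489.9 to 429, 421 and 421 CPM (-0.18 ± 0.024, adjusted p = 5.65e-07). For both, the ASO samples were below all 21 others, while the 18 samples with an effector were at 490.2 to 537 CPM for Stip1 and 469.5 to 496 CPM for Fkbp4, overlapping the untransfected ones. Ahsa1, which activates the ATPase of Hsp90, went the other way under transfection. It was at 237, 246 and 250.5 CPM in untransfected cells, 264, 259.5 and 266 CPM with HiFi-RfxCas13d and NTG (0.11 ± 0.032, adjusted p = 0.0166) and 259, 290.0 and 262 CPM with DiCas7-11 and NTG (0.15 ± 0.032, adjusted p = 0.0011). Its RfxCas13d groups were at 255, 250.0 and 246 CPM (NTG) and 266, 269.6 and 259 CPM (mATXN2), the other mATXN2 groups at 262 to 274 CPM, and the ASO group at 229, 239 and 233 CPM (-0.062 ± 0.032, adjusted p = 0.119). The call for HiFi-RfxCas13d was lost without untransfected replicate 1 (adjusted p = 0.0942) or NTG replicate 3 (0.0569). For DiCas7-11 the log2 fold change of Ahsa1 was 0.098 without NTG replicate 2, still called.

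Chordc1, an Hsp90 partner of the CHORD family, was the only member called in both directions over the 4 comparisons with untransfected cells. It was at 124, 129.7 and 137 CPM in untransfected cells, 146, 140.4 and 148 CPM with HiFi-RfxCas13d and NTG (log2 fold change 0.15 ± 0.048 (SE), adjusted p = 0.0217) and 115, 121 and 118 CPM with the ASO (-0.14 ± 0.048, adjusted p = 0.0197). The HiFi-RfxCas13d samples lay above all untransfected samples and the ASO samples below all 21 others. The call with HiFi-RfxCas13d was lost without untransfected replicate 1 (adjusted p = 0.126) or 2 (0.0603), or NTG replicate 1 (0.0618) or 3 (0.0793). The call with the ASO was lost without untransfected replicate 3 (0.137) or ASO replicate 1 (0.0827). Chordc1 lay at 144, 143 and 133 CPM with RfxCas13d and NTG and at 129, 150.1 and 144 CPM with DiCas7-11 and NTG, which did not pass (adjusted p = 0.173 and 0.0726). The DiCas7-11 rise was called with no filter on low counts (adjusted p = 0.00983) and with the replicate number as a block (0.0365). It was also called without NTG replicate 1 (0.00654) or untransfected replicate 3 (0.036). The mATXN2 groups of Chordc1 were at 123, 134 and 132, at 136, 150.5 and 142 and at 127, 137 and 126 CPM.

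Among the small heat shock proteins, Hspb8, which works with BAG3 on misfolded proteins, was higher with HiFi-RfxCas13d and with the ASO. It was at 164, 166 and 164 CPM in untransfected cells, 179.7, 174 and 177 CPM with HiFi-RfxCas13d and NTG (log2 fold change 0.099 ± 0.029 (SE), adjusted p = 0.0133) and 177, 177 and 179.9 CPM with the ASO (0.11 ± 0.028, adjusted p = 0.00196), in both cases without overlap. The HiFi-RfxCas13d call was lost without NTG replicate 1 (adjusted p = 0.0594). With DiCas7-11 it was at 169.9, 159 and 160.5 CPM (NTG) and 162, 159.5 and 166 CPM (mATXN2), overlapping the untransfected samples, and with RfxCas13d at 176, 168 and 170.3 CPM (NTG) and 177, 176 and 171 CPM (mATXN2). Cryab, the small heat shock protein alpha-B-crystallin, was at 3.0 to 6.34 CPM over all samples and was not called. Serpinh1, a collagen chaperone of the endoplasmic reticulum that heat shock induces, was at 1.56, 2.98 and 3.92 CPM in untransfected cells, where replicate 1 stood well below the others. It was at 1.33, 1.49 and 1.86 CPM with DiCas7-11 and NTG (-0.83 ± 0.30, adjusted p = 0.0467) and at 1.37, 1.80 and 1.21 CPM with the ASO (-0.92 ± 0.28, adjusted p = 0.00979). The groups overlapped in both comparisons, since untransfected replicate 1 was as low as the treated samples. Without untransfected replicate 3 the adjusted p was 0.257 for DiCas7-11 (log2 fold change -0.54) and 0.107 for the ASO, and without untransfected replicate 2 it was 0.13 for DiCas7-11. Leaving out replicate 1 or 2 of DiCas7-11 NTG also ended that call (0.115 and 0.128), as did DESeq2 (0.051), limma-trend (0.0734) and a fit of only the groups compared (0.0932). The remaining groups of Serpinh1 were at 1.07 to 2.47 CPM, and over all 24 samples the gene had 15.2 to 49.7 counts per sample.

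**Figure D3:**
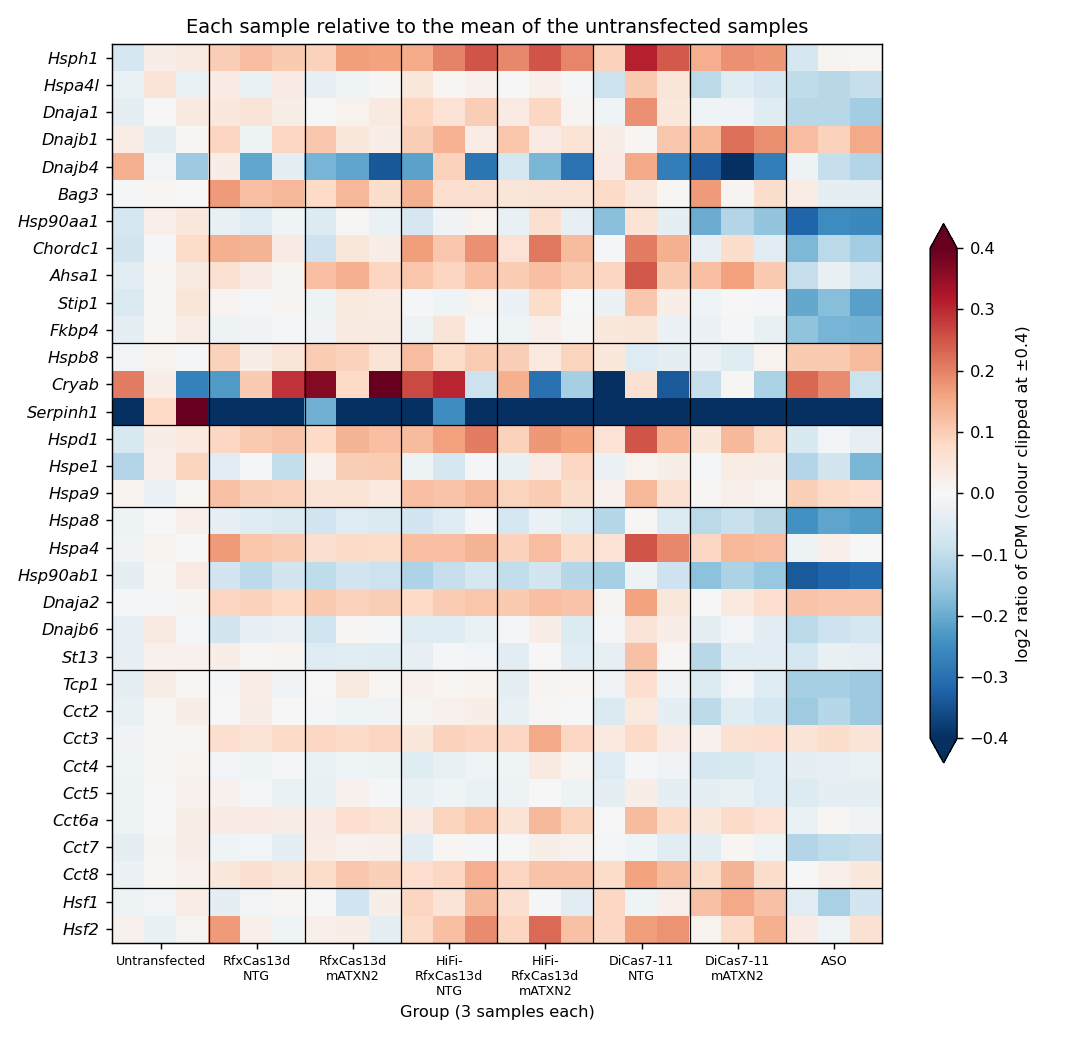
Log2 ratio of the CPM in each sample to the mean of the 3 untransfected samples, for the 33 members (rows, ordered by role) in 24 samples (columns, by group). Hsp90aa1, Hsp90ab1, Hspa8, Stip1 and Fkbp4 are blue in all 3 ASO samples, Hspa4, Hspa9 and Dnaja2 are red or pale red in the NTG samples, and Serpinh1, Cryab and Dnajb4 vary most within groups.

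Of the mitochondrial chaperones, Hspa9 was higher in each NTG group and with the ASO. Of the Hsp60/Hsp10 pair, Hspd1 was called higher with NTG for HiFi-RfxCas13d and DiCas7-11, and Hspe1 was called in no NTG group. Hspa9, the mitochondrial Hsp70 that pulls in and folds imported proteins, was at 1082, 1054 and 1076 CPM in untransfected cells. With NTG it was at 1161, 1143 and 1141 CPM for RfxCas13d, 1165, 1160 and 1171 CPM for HiFi-RfxCas13d and 1083, 1173 and 1117 CPM for DiCas7-11. Each NTG sample lay above each untransfected sample, the DiCas7-11 group by the narrowest margin. The log2 fold changes were 0.10 ± 0.021, adjusted p = 0.00198 for RfxCas13d, 0.12 ± 0.021, adjusted p = 0.000124 for HiFi-RfxCas13d and 0.071 ± 0.021, adjusted p = 0.0163 for DiCas7-11. The DiCas7-11 call was lost without NTG replicate 2 (log2 fold change 0.042, adjusted p = 0.152) or untransfected replicate 2 (0.0849), and with only the groups compared in the fit (0.177). The ASO samples were at 1144, 1129 and 1121 CPM (0.080 ± 0.021, adjusted p = 0.00308), and the mATXN2 groups at 1113, 1113 and 1100, at 1140, 1149 and 1124 and at 1074, 1087 and 1082 CPM.

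Hspd1, which encodes Hsp60, was at 1386, 1476 and 1489 CPM in untransfected cells and, with NTG, at 1536, 1559 and 1570 CPM for RfxCas13d, 1584, 1624 and 1671 CPM for HiFi-RfxCas13d and 1509, 1726 and 1598 CPM for DiCas7-11. The groups did not overlap. The rise was called for HiFi-RfxCas13d (log2 fold change 0.17 ± 0.034 (SE), adjusted p = 0.000693) and DiCas7-11 (0.15 ± 0.034, adjusted p = 0.00147), and RfxCas13d fell just outside the threshold (0.10 ± 0.034, adjusted p = 0.0508), inside it with 6 alternative settings, among them the replicate block (0.00332), and without untransfected replicate 3 (0.0408). The mATXN2 groups were at 1533, 1592 and 1577, at 1545, 1634 and 1617 and at 1494, 1587 and 1531 CPM, and the ASO group at 1391, 1438 and 1419 CPM. Hspe1, the Hsp10 lid of the same chamber, did not follow: it was at 249, 274 and 288 CPM in untransfected cells and 253 to 275 CPM in the 9 NTG samples, with log2 fold changes of -0.047, -0.028 and 0.0076. In the mATXN2 groups Hspe1 lay at 265 to 290.5 CPM. With the ASO it was at 249, 257 and 239 CPM and was called lower (-0.12 ± 0.038, adjusted p = 0.0109), although the groups overlapped. That call was lost without untransfected replicate 2 (adjusted p = 0.0505) or 3 (0.144, log2 fold change -0.074) or ASO replicate 3 (0.0833). The ratio of Hspd1 CPM to Hspe1 CPM was 5.37 ± 0.195 (SD, n = 3) in untransfected cells and 5.95 ± 0.229, 6.14 ± 0.183 and 5.93 ± 0.346 with NTG in the order RfxCas13d, HiFi-RfxCas13d and DiCas7-11. In the mATXN2 groups it was 5.5 ± 0.0852, 5.79 ± 0.135 and 5.62 ± 0.109, and with the ASO 5.71 ± 0.209. Length moves with these values: the longest transcript of Hspe1 has 964 bases, that of Hspd1 2423 and the median tested gene 3415.5, and with the ASO, when genes were put into 4 bins of equal size by transcript length, the median log2 fold change was -0.042 in the shortest bin and 0.0358 in the longest. With a correction for length, added after the data were seen, Hspe1 was at -0.047 with the ASO (adjusted p = 0.292) and was no longer called. In the NTG comparisons the correction moved Hspe1 to -0.00049, 0.018 and 0.042, in the order RfxCas13d, HiFi-RfxCas13d and DiCas7-11. Corrected values of Hspd1 were 0.11, 0.17 and 0.16, and the shortest bin had uncorrected medians of -0.025, -0.0284 and -0.03. The ratio of the pair was not tested between groups.

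Of the constitutive chaperones of the cytosol, Hsp90ab1 was called lower and Hspa4 and Dnaja2 higher in every NTG group. The calls of Hsp90ab1 and Dnaja2 for RfxCas13d and DiCas7-11 were lost without single samples. Hsp90ab1, the constitutive Hsp90 and the most abundant member, was at 5998, 6188 and 6307 CPM in untransfected cells. With NTG it was at 5843, 5734 and 5864 CPM for RfxCas13d, 5657, 5788 and 5890 CPM for HiFi-RfxCas13d and 5625, 6075 and 5826 CPM for DiCas7-11, and with the ASO at 4882, 4935 and 4980 CPM. The RfxCas13d and HiFi-RfxCas13d samples were all below the untransfected ones, 1 DiCas7-11 sample overlapped them, and the ASO samples were below all 21 others. The log2 fold changes were -0.084 ± 0.022, adjusted p = 0.0106 for RfxCas13d, -0.093 ± 0.022, adjusted p = 0.00244 for HiFi-RfxCas13d, -0.077 ± 0.022, adjusted p = 0.0102 for DiCas7-11 and -0.32 ± 0.022, adjusted p = 1.42e-12 for the ASO. The call was lost for RfxCas13d without NTG replicate 2 (adjusted p = 0.0662) or untransfected replicate 3 (0.0788), and for DiCas7-11 without NTG replicate 1 (0.0789, log2 fold change -0.050) or untransfected replicate 3 (0.0706), and with only the groups compared in the fit (0.152). The mATXN2 groups were at 5741, 5840 and 5804, at 5755, 5853 and 5697 and at 5500, 5645 and 5546 CPM.

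Hspa8, the constitutive Hsp70, was called lower with the ASO, and for DiCas7-11 NTG only in alternative fits. It was at 3371, 3426 and 3466 CPM in untransfected cells and 2890, 2957 and 2927 CPM with the ASO (log2 fold change -0.23 ± 0.022 (SE), adjusted p = 1.66e-09), again below all 21 other samples. In the NTG groups it was at 3344, 3305 and 3285 CPM for RfxCas13d (-0.047 ± 0.022, adjusted p = 0.177), 3247, 3301 and 3406 CPM for HiFi-RfxCas13d (-0.044 ± 0.022, adjusted p = 0.161) and 3164, 3435 and 3295 CPM for DiCas7-11 (-0.052 ± 0.022, adjusted p = 0.0854). Without NTG replicate 2 of DiCas7-11, the highest of its group, the fall of Hspa8 for DiCas7-11 was called (adjusted p = 0.00692). With the replicate number as a block that fall was called too (adjusted p = 0.0385). The mATXN2 groups were at 3242, 3298 and 3288, at 3262, 3359 and 3307 and at 3175, 3218 and 3170 CPM.

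Hspa4, an Hsp110 protein of the cytosol, was higher in every NTG group and not with the ASO. It was at 718, 733 and 725 CPM in untransfected cells and 716, 736 and 725 CPM with the ASO (-0.00041 ± 0.030, adjusted p = 0.993), which overlapped. With NTG it was at 816, 783 and 778 CPM for RfxCas13d (log2 fold change 0.13 ± 0.030 (SE), adjusted p = 0.00551), 788, 789 and 798 CPM for HiFi-RfxCas13d (0.13 ± 0.030, adjusted p = 0.00288) and 755, 864 and 828 CPM for DiCas7-11 (0.17 ± 0.030, adjusted p = 0.000121). The mATXN2 groups, at 759, 765 and 764, at 773, 789.7 and 765 and at 768, 796 and 791 CPM, lay above the untransfected samples too. Dnaja2, a constitutive J-domain protein, was at 285, 285 and 288 CPM in untransfected cells, and 304, 305 and 302, then 302, 307 and 309, then 288, 319.7 and 295 CPM with NTG in the order RfxCas13d, HiFi-RfxCas13d and DiCas7-11. Each NTG sample lay above each untransfected sample, the lowest DiCas7-11 sample by under 1 CPM, and the log2 fold changes were 0.086 ± 0.027, adjusted p = 0.039, then 0.098 ± 0.027, adjusted p = 0.01, then 0.075 ± 0.027, adjusted p = 0.0491 in that order. The RfxCas13d call of Dnaja2 was lost without any 1 of the 6 samples compared, with adjusted p between 0.0577 (without untransfected replicate 3) and 0.102 (without untransfected replicate 2). The DiCas7-11 call of Dnaja2 was lost without NTG replicate 2 (log2 fold change 0.030, adjusted p = 0.439) or untransfected replicate 1 (0.0968), 2 (0.119) or 3 (0.0674). It was also lost with limma-trend (0.0666), with no filter on low counts (0.0741) and with only the groups compared (0.225). With the ASO Dnaja2 was at 309, 308 and 308 CPM (0.11 ± 0.027, adjusted p = 0.00144), and in the mATXN2 groups at 307, 305 and 306, at 307, 311 and 309.7 and at 286, 294 and 299 CPM.

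The other members of this role changed less. Dnajb6, a J-domain protein that keeps polyglutamine proteins soluble and holds the strict element shown above, was lower with the ASO, at 162, 165 and 166 CPM beside 171, 179 and 174 CPM (-0.088 ± 0.028, adjusted p = 0.0119), and at 166 to 181 CPM with the effectors. That call was lost without untransfected replicate 2 (adjusted p = 0.0919) or ASO replicate 1 (0.0578) and with no filter on low counts (0.0604). St13, which helps hand clients from Hsp70 to Hsp90, was at 667 to 690.4 CPM in untransfected cells and 649.8 to 668 CPM with the ASO and was not called in any comparison.

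**Figure D4:**
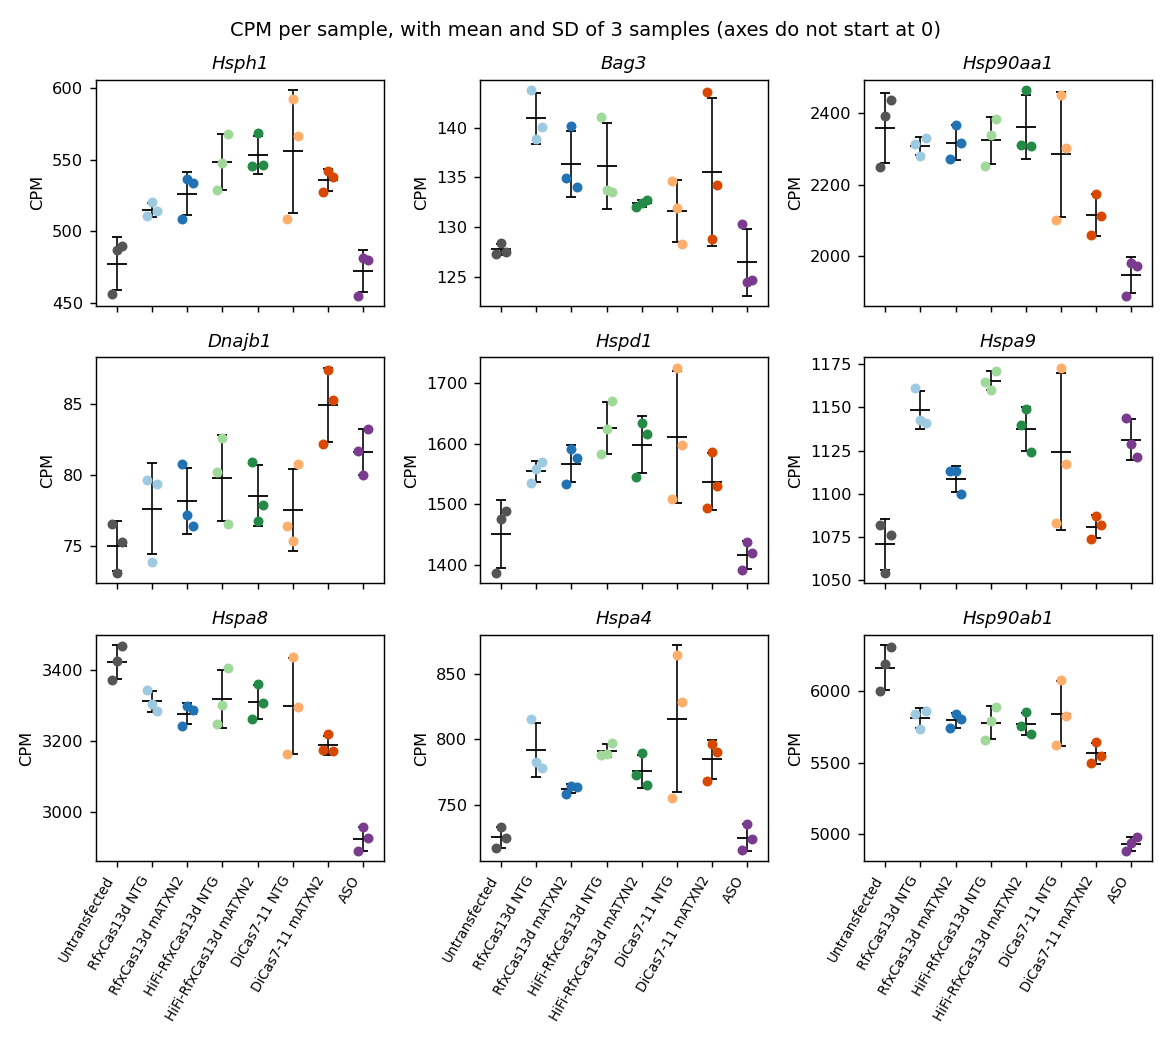
CPM of 9 members in each of the 24 samples, by group, with the mean (line) and SD (bar) of 3 samples; the axes do not start at 0. Hsp90aa1, Hspa8 and Hsp90ab1 have their 3 ASO points below all others, Hsph1 and Hspa4 have their untransfected and ASO points lowest, and the DiCas7-11 NTG points spread widely in most panels.

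The subunits of TRiC did not move as a block. With NTG, RfxCas13d had 1 of the 8 subunits called, HiFi-RfxCas13d 3 and DiCas7-11 2, all higher, and with the ASO 4 were called, 1 higher and 3 lower. Of all genes 11.3%, 20.9%, 21.9% and 42.7% were called in these comparisons. Of those with at least 50 CPM the shares were 19%, 33.4%, 36.3% and 57.8%. Cct8 was at 671, 686 and 690.5 CPM in untransfected cells, 716, 722 and 755 CPM with HiFi-RfxCas13d and NTG (log2 fold change 0.10 ± 0.024 (SE), adjusted p = 0.00337) and 718, 762 and 745 CPM with DiCas7-11 and NTG (0.12 ± 0.024, adjusted p = 0.000514). Cct8 was at 702, 713 and 706 CPM with RfxCas13d and NTG, 717 to 749 CPM in the mATXN2 samples and 681, 692 and 702 CPM with the ASO. Cct3 was at 609.5, 616 and 619 CPM in untransfected cells and in the NTG groups at 644, 639 and 648 CPM for RfxCas13d (0.066 ± 0.022, adjusted p = 0.0449), 633, 656 and 653 CPM for HiFi-RfxCas13d and 632, 648 and 629 CPM for DiCas7-11, with every transfected and ASO sample above the untransfected ones. The RfxCas13d call of Cct3 was lost without any 1 of the 6 samples, with adjusted p from 0.0603 (without untransfected replicate 3) to 0.114 (without untransfected replicate 1), and with no filter on low counts (0.0867). The HiFi-RfxCas13d call of Cct3 was lost without untransfected replicate 1 (0.052) or NTG replicate 2 (0.0683).

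Cct6a was at 894, 906 and 922 CPM in untransfected cells and at 929.5, 966 and 979.9 CPM with HiFi-RfxCas13d and 909.5, 990.1 and 956 CPM with DiCas7-11, both with NTG, where it was called higher (log2 fold changes 0.079 and 0.069), the DiCas7-11 samples with an overlap. The HiFi-RfxCas13d call was lost without NTG replicate 2 (adjusted p = 0.0783) or 3 (0.12) or untransfected replicate 1 (0.0942) or 2 (0.0648). The DiCas7-11 call was lost without NTG replicate 2 (0.28, log2 fold change 0.042) or 3 (0.106) or untransfected replicate 1 (0.149) or 2 (0.105), with limma-trend (0.0623) and with only the groups compared (0.199). With the ASO, Tcp1 fell from 911, 949.8 and 939 to 851, 851 and 843 CPM (log2 fold change -0.14 ± 0.022 (SE), adjusted p = 1.18e-05), Cct2 from 1256, 1288 and 1305 to 1163, 1186 and 1159 CPM (-0.13) and Cct7 from 875, 904 and 914 to 828, 836 and 843 CPM (-0.10). For these 3 subunits the ASO samples were below all 21 others, while Cct3 with the ASO was at 637, 646 and 638 CPM and was called higher (0.058). That call was lost without untransfected replicate 1 (adjusted p = 0.0851) or 2 (0.0594) or ASO replicate 2 (0.0903), with limma-trend (0.066) and with no filter (0.0531). In the 18 samples with an effector Tcp1 was at 899 to 977 CPM, Cct2 at 1193 to 1317 CPM and Cct7 at 869.8 to 917 CPM. Cct4 and Cct5 were called in no comparison, and Cct5 lay at 735 to 778 CPM in all 24 samples.

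Of the heat shock factors, Hsf2 was called with HiFi-RfxCas13d and DiCas7-11, and Hsf1 in no comparison with untransfected cells. Hsf1, the main stress-responsive factor, was at 59.0, 59.3 and 61.1 CPM in untransfected cells, and in the NTG groups at 58.3, 59.4 and 60.1 CPM for RfxCas13d (-0.010 ± 0.041, adjusted p = 0.916), 63.4, 61.9 and 65.4 CPM for HiFi-RfxCas13d (0.090 ± 0.041, adjusted p = 0.121) and 63.4, 59.0 and 60.6 CPM for DiCas7-11 (0.029 ± 0.041, adjusted p = 0.678). With the ASO it was at 58.1, 54.7 and 56.7 CPM (-0.081 ± 0.040, adjusted p = 0.102), and in the mATXN2 groups at 59.8, 56.6 and 60.8, at 62.5, 59.5 and 58.1 and at 64.9, 66.4 and 64.9 CPM. HSF1 is controlled mainly at the protein level, which was not measured here. Hsf2, a related factor, was at 75.1, 72.9 and 75.0 CPM in untransfected cells, 78.3, 80.8 and 84.7 CPM with HiFi-RfxCas13d and NTG (log2 fold change 0.13 ± 0.047 (SE), adjusted p = 0.0485) and 78.7, 83.4 and 84.2 CPM with DiCas7-11 and NTG (0.15 ± 0.047, adjusted p = 0.0258). Neither group overlapped the untransfected one. Both calls were near the threshold: that for HiFi-RfxCas13d was lost without any of the 3 untransfected samples (0.0772, 0.152 and 0.0758 without replicates 1, 2 and 3) or without NTG replicate 2 (0.0871) or 3 (0.198), and with DESeq2 (0.0528), limma-trend (0.056) and the replicate block (0.0501). That for DiCas7-11 was lost without untransfected replicate 2 (0.0978) or NTG replicate 2 (0.0869) or 3 (0.0973). Hsf2 was at 83.5, 75.4 and 73.5 CPM with RfxCas13d and NTG, 72.3 to 87.0 CPM in the mATXN2 samples and 76.0, 73.5 and 77.6 CPM with the ASO.

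Targeting Atxn2 was compared with NTG within each effector, the comparison the design was made for. With edgeR no member was called, where 1.39% (RfxCas13d), 0.295% (HiFi-RfxCas13d) and 0.942% (DiCas7-11) of all genes were (3.38%, 0.756% and 2.37% of those with at least 50 CPM). At an unadjusted p under 0.05 there were 6, 2 and 13 members. DESeq2 called 1, 0 and 4 members, and limma-trend, adjusted over 10 comparisons together as the study describes, called 1, 0 and 7. The 10 used here were the mATXN2, NTG and ASO comparisons above and each mATXN2 group against untransfected cells. The study's text does not list its own. The counts for DiCas7-11 depended on its NTG samples. NTG replicate 1 had the lowest of the 3 values for 23 of the 33 members and NTG replicate 2 the highest for 25, and edgeR called 11 members without replicate 1, 1 without replicate 3 and 0 without replicate 2. Over all genes these fits called 605, 185 and 16, beside 131 with all samples. Of the 33 fitted changes for DiCas7-11 only 7 were positive, with a median of -0.0475 beside -0.000985 for all genes.

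**Figure D5:**
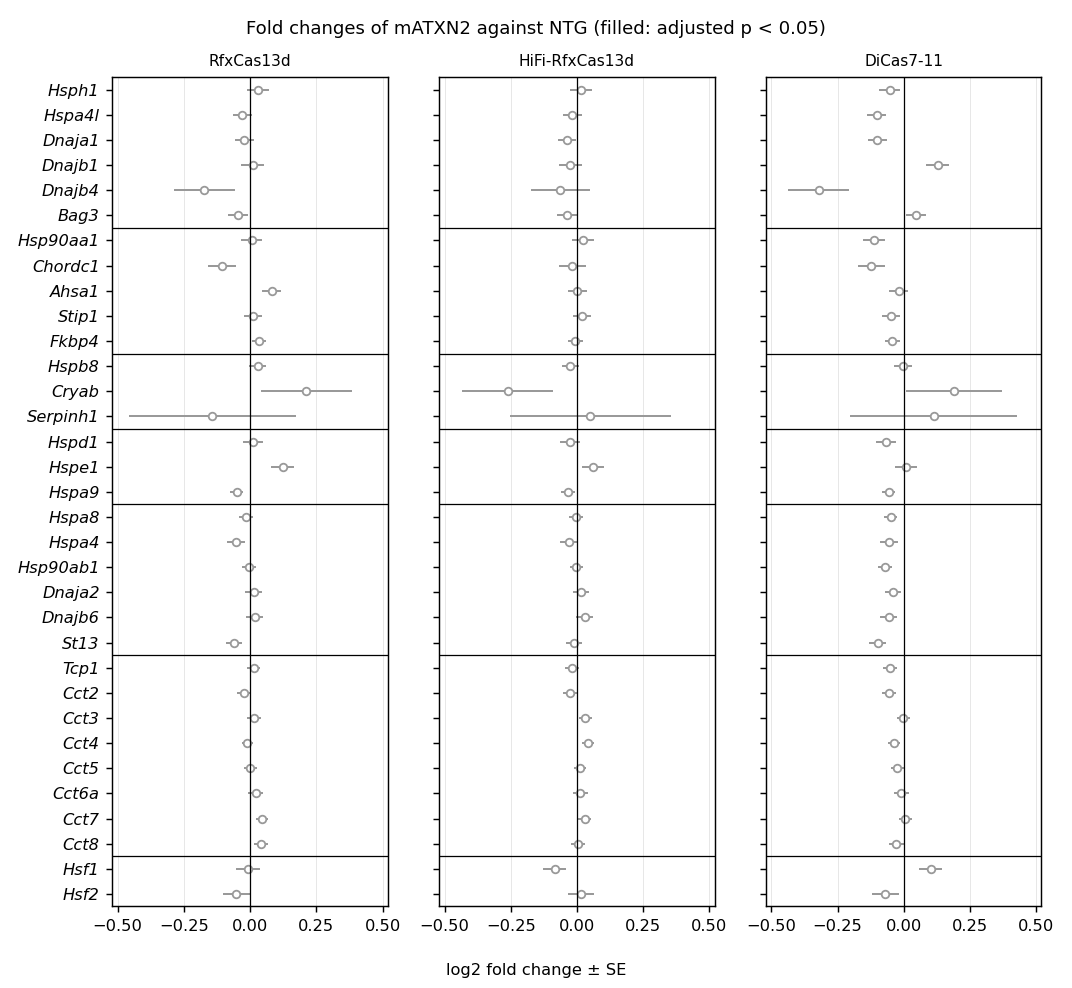
Log2 fold change of each member with the mATXN2 crRNA against the NTG crRNA, with its SE as a bar, for each effector. All points are open, since no member had an adjusted p under 0.05, and 26 of the 33 points of DiCas7-11 lie left of 0.

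Among members with a mean of at least 50 CPM, the largest fitted change was that of Dnajb1 with DiCas7-11, where the 3 mATXN2 samples lay above the 3 NTG samples (log2 fold change 0.13 ± 0.040 (SE), adjusted p = 0.119). Its values for RfxCas13d and HiFi-RfxCas13d were 0.0099 ± 0.040, adjusted p = 0.949 and -0.024 ± 0.039, adjusted p = 0.95. Hspa8 changed by -0.015 ± 0.022, adjusted p = 0.831 for RfxCas13d, by -0.0038 ± 0.022, adjusted p = 0.985 for HiFi-RfxCas13d and by -0.049 ± 0.022, adjusted p = 0.299 for DiCas7-11. Hsp90aa1 changed by 0.0058 ± 0.037, adjusted p = 0.968, by 0.022 ± 0.037, adjusted p = 0.951 and by -0.11 ± 0.037, adjusted p = 0.143 in the same order. Without NTG replicate 1 of DiCas7-11 the adjusted p was 0.00386 for Hsp90aa1 and 0.0254 for Hspa8. Hsf1 changed by -0.0075 ± 0.041, adjusted p = 0.964, by -0.085 ± 0.040, adjusted p = 0.651 and by 0.10 ± 0.040, adjusted p = 0.227. Hspe1 with RfxCas13d, picked out after its values were seen, was higher in all 3 mATXN2 samples than in the NTG samples (0.12 ± 0.039, adjusted p = 0.114), and its transcript is short (the shortest of the 4 length bins of all genes had a median of 0.0293 here). The response to the crRNA was also compared between effectors as an interaction, and no member and no gene (0% of those tested in each of 3 contrasts) was called with edgeR, with 0, 6 and 7 members at an unadjusted p under 0.05. DESeq2 and limma-trend called no member either.

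With both arms of each effector combined, the effectors differed in few members. HiFi-RfxCas13d against RfxCas13d called none with edgeR (3.33% of all genes), with 5 at an unadjusted p under 0.05 and none by DESeq2 or limma-trend. DiCas7-11 against RfxCas13d called 2 (11.4% of all genes): Hspb8 was lower (log2 fold change -0.087 ± 0.020 (SE), adjusted p = 0.00425) and Hsf1 higher (0.093 ± 0.029, adjusted p = 0.0314). HiFi-RfxCas13d against DiCas7-11 called 4, all higher with HiFi-RfxCas13d (7.05% of all genes): Hspb8 (0.10 ± 0.020, adjusted p = 0.00109), Hspa9 (0.063 ± 0.015, adjusted p = 0.00874), Hsp90aa1 (0.092 ± 0.026, adjusted p = 0.0275) and Cct2 (0.052 ± 0.015, adjusted p = 0.0373). In each of these 6 calls the samples of the compared effectors overlapped. Both calls of Hspb8 stand on the values given above, with 159 to 169.9 CPM in the 6 DiCas7-11 samples, 168 to 177 CPM in the 6 RfxCas13d samples and 169 to 179.7 CPM in the 6 HiFi-RfxCas13d samples. DiCas7-11 NTG replicate 1 was the only DiCas7-11 sample within the Hspb8 range of the other effectors.

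Single DiCas7-11 samples decided several of these counts. Without its NTG replicate 2, 7 members were called against RfxCas13d and 8 against HiFi-RfxCas13d, and without its NTG replicate 1 there were 5 against RfxCas13d. Over all genes these fits called 1362, 1029 and 1946, beside 1579 against RfxCas13d and 980 against HiFi-RfxCas13d with all samples. Leaving out HiFi-RfxCas13d NTG replicate 2 or 3, HiFi-RfxCas13d mATXN2 replicate 2, or DiCas7-11 mATXN2 replicate 1 or 3 left 2 calls between HiFi-RfxCas13d and DiCas7-11. The call of Hsf1 was lost without DiCas7-11 NTG replicate 1 (adjusted p = 0.0672) or 3 (0.0506), DiCas7-11 mATXN2 replicate 2 (0.0656), RfxCas13d NTG replicate 1 (0.0612) or RfxCas13d mATXN2 replicate 2 (0.0989). Those of Hsp90aa1 and Cct2 were lost without any 1 of 6 and 9 of the 12 samples compared, those 5 and DiCas7-11 NTG replicate 1 for both and also HiFi-RfxCas13d NTG replicate 1, HiFi-RfxCas13d mATXN2 replicate 3 and DiCas7-11 NTG replicate 3 for Cct2, with adjusted p up to 0.1 for Hsp90aa1 and 0.115 for Cct2. The always-named members that were not called changed by 0.0087, -0.023 and 0.031 (Hspa8) and 0.023, 0.058 and -0.035 (Dnajb1) in the 3 comparisons in this order. Hsp90aa1 changed by 0.018 ± 0.026, adjusted p = 0.789 for HiFi-RfxCas13d and -0.073 ± 0.026, adjusted p = 0.0659 for DiCas7-11, both against RfxCas13d. The fall for DiCas7-11 was called with the replicate number as a block (adjusted p = 0.0081) and with no filter on low counts (0.000213). It was called without DiCas7-11 NTG replicate 2 as well (0.00643). Hsf1 changed by 0.061 ± 0.029, adjusted p = 0.278 for HiFi-RfxCas13d against RfxCas13d and by -0.032 ± 0.028, adjusted p = 0.586 for HiFi-RfxCas13d against DiCas7-11.

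A test of any difference among the 8 groups, with 7 degrees of freedom, called 28 of the 33 members, beside 50.3% of all genes. By class it called 11 of the 14 heat shock factor targets, 15 of the 17 constitutive chaperones and both heat shock factors. The summed level of the 14 targets was 5326 ± 173 CPM (SD, n = 3) in untransfected cells, 5362 ± 33.8 with RfxCas13d and NTG, 5452 ± 83 with HiFi-RfxCas13d and NTG and 5419 ± 313 with DiCas7-11 and NTG. It was 4727 ± 65.9 CPM with the ASO, and 5387 ± 92.2, 5471 ± 143 and 5143 ± 80.5 CPM in the mATXN2 groups. Hsp90aa1 is the largest part of this sum. The 17 constitutive chaperones summed to 21198 ± 402 CPM in untransfected cells and 19192 ± 146 CPM with the ASO, and group means of the transfected cells ran from 20448 (DiCas7-11 mATXN2) to 21174 CPM (DiCas7-11 NTG).

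Other chaperone genes and related heat shock factor targets, a list of 66 genes of which 61 were tested, were read beside the shares of all genes given above. Against untransfected cells 8 (5 higher) were called for RfxCas13d, 13 (10 higher) for HiFi-RfxCas13d, 18 (13 higher) for DiCas7-11 and 19 (10 higher) for the ASO. Zfand2a, a proteasome-associated gene that heat shock induces, was higher with the ASO (0.35), HiFi-RfxCas13d NTG (0.21) and DiCas7-11 NTG (0.26). Hspa2, an Hsp70 best known from testis, was lower in each NTG group (-0.38, -0.65 and -0.58) and with the ASO (-0.65).

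The chaperones of the endoplasmic reticulum, the matching families of another compartment, were set beside the members by counts. Of 16 tested, the NTG groups had 3 (RfxCas13d), 7 (HiFi-RfxCas13d) and 5 (DiCas7-11) called against untransfected cells, all higher, and 12 for the ASO, all lower. Of all genes 11.3%, 20.9% and 21.9% were called in these NTG comparisons and 42.7% with the ASO, in either direction. Among genes with at least 50 CPM the shares were 19%, 33.4%, 36.3% and 57.8% in the same order. The median log2 fold change of the 16 with the ASO was -0.159, beside -0.062 for the members. Hsp90b1, the Hsp90 of this compartment, changed by -0.34 with the ASO, close to Hsp90ab1 (-0.32) and Hsp90aa1 (-0.28), and Hspa5, its Hsp70, by -0.16, beside -0.23 for Hspa8.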

How the data were processed

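RNA-seq was measured in 24 samples of Neuro2A cells, 3 in each of 8 groups taken from the sample labels. The authors quantified stranded single-end reads with Salmon 1.5.2 against the NCBI mouse transcriptome, with the GRCm39 genome as decoy and corrections for sequence and GC bias, and deposited estimated counts per gene, scaled by transcript length with tximport and not normalized for library size. Reads that match several transcripts are divided by estimation, which leaves near-identical copies uncertain. The headers were matched to the labels by effector, arm and replicate number. The R version named in the submitters' processing notes is 4.2.2.

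Estimated counts were rounded and tested in R 4.3.3 with edgeR 4.0.16 (TMM normalization, quasi-likelihood F-test, 1 fit over the 8 groups). Genes needed at least 0.5 CPM in at least 3 samples. A mark in the table for genes the authors kept, which leaves out 0.0945% of the counts, was not used. Adjusted p values follow Benjamini and Hochberg over all tested genes of a comparison, with a threshold of 0.05. CPM values use TMM-scaled library sizes, and a level per kb divides by the longest protein-coding transcript in GENCODE M21. The total counts given in the report set the precision. Alternatives were DESeq2 1.42.0, its size factors, limma 3.58.1 (limma-trend, prior count 3), no filter, only the groups compared, the replicate number as a block and leaving out each sample. A length correction by lowess was chosen after seeing the data.

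The members and lists were chosen with earlier results of these data known. Named in each comparison were at most 8 called members with the largest change, and Hspa8, Hsp90aa1, Dnajb1 and Hsf1 throughout, with Hspa1a and Hspa1b by their counts. Same-numbered samples of different groups did not deviate together over all tested genes (correlations of -0.0862 to 0.0845 over 84 pairs), although replicate 1 was the lowest of its group for 17 to 26 of the 33 members in 7 of the 8 groups, so by the rule over all genes the numbers were not taken as pairs. Promoter windows came from RefSeq (GRCm38.p6) and were not combined with coordinates of GRCm39.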

Additional observations from a re-analysis of the deposited data

How the results depend on the processing

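Of 1032 refits of a named member, 930 kept the direction and the side of the threshold, 74 lost the call, 12 gained one and 16 changed sign. The counts of called members moved beyond 1.5 times as follows, and the cause was not tested. With no filter on low counts the mATXN2 comparison gave 1 member for RfxCas13d and 4 for DiCas7-11, HiFi-RfxCas13d against RfxCas13d gave 3, DiCas7-11 against RfxCas13d gave 5, and the crRNA response of HiFi-RfxCas13d against that of DiCas7-11 gave 1. DESeq2 gave 1 and 4 members in the mATXN2 comparisons of RfxCas13d and DiCas7-11 and 1 for DiCas7-11 against RfxCas13d. Limma-trend gave 1 and 7 in those mATXN2 comparisons. With only the groups compared there was 1 for the mATXN2 comparison of RfxCas13d, 6 for DiCas7-11 NTG against untransfected cells, and 1 in each comparison between effectors. The length correction gave 1 for the mATXN2 comparison of DiCas7-11. The replicate block gave 3 members for the mATXN2 comparison of DiCas7-11, 1 for HiFi-RfxCas13d against RfxCas13d and 6 for DiCas7-11 against RfxCas13d, and it moved no other count beyond 1.5 times (8, 14 and 13 for the NTG groups in the order RfxCas13d, HiFi-RfxCas13d and DiCas7-11, and 19 for the ASO). Over all tested genes the correlations of same-numbered samples lay on both sides of 0, and the numbers are not known to mark a shared culture or day.

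Leaving out 1 sample at a time gave 0 to 11 calls for the mATXN2 comparison of DiCas7-11, in fits that called 16 to 605 of all genes. It gave 3 to 5 for RfxCas13d NTG, 9 to 12 for HiFi-RfxCas13d NTG, 6 to 12 for DiCas7-11 NTG and 14 to 18 for the ASO, each against untransfected cells. Between effectors it gave 0 to 1 for HiFi-RfxCas13d against RfxCas13d, 2 to 7 for DiCas7-11 against RfxCas13d and 2 to 8 for HiFi-RfxCas13d against DiCas7-11, and for any difference 26 to 30.

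The changes of sign were all in fits near 0 with no call, and apart from Hspa8 at 0.0041 with the length correction in the mATXN2 comparison of HiFi-RfxCas13d they came from leaving out 1 sample. In the mATXN2 comparison of RfxCas13d, the fits without 1 sample ran from -0.014 to 0.016 for Hsp90aa1, from -0.028 to 0.023 for Dnajb1 and from -0.033 to 0.020 for Hsf1. In that of HiFi-RfxCas13d they ran from -0.018 to 0.015 for Hspa8, from -0.010 to 0.040 for Hsp90aa1 and from -0.054 to 0.0027 for Dnajb1. Against untransfected cells they ran from -0.017 to 0.0059 for Hsf1 with RfxCas13d NTG, from -0.052 to 0.0022 for Hsp90aa1 with HiFi-RfxCas13d NTG and from -0.097 to 0.011 for Hsp90aa1 with DiCas7-11 NTG. Between HiFi-RfxCas13d and RfxCas13d they ran from -0.00067 to 0.016 for Hspa8. The sum of Hspa1a and Hspa1b did not pass the filter, so the planned fit of the sum gave no value. Depth limits Hspa1a, Hspa1b and Hspb1 to a statement of detection.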
